A study of Mus musculus with 44 samples.

Results

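The 10 genes described here, Pou5f1, Nanog, Sox2, Utf1, Zfp42, Tdgf1, Esrrb, Klf4, Dppa4 and Lin28a, are known for their part in the pluripotent state of the mouse embryo and were chosen by name. They are 10 of the 32287 gene identifiers quantified. Their level was read as TPM (a transcript abundance that is scaled for transcript length and library size), summed per gene identifier, in 44 bulk RNA libraries. Of the 10, Klf4 was above 1 TPM in 43 libraries, Zfp42 in 40, Lin28a in 37, Sox2 in 24, Utf1 in 18, Pou5f1 in 15, Nanog in 12, Dppa4 in 11, Tdgf1 in 7 and Esrrb in 2.

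Pluripotency, the capacity to form all tissues of the body, is held in the epiblast and is lost as the germ layers form. The transcription factors Pou5f1 (OCT4), Sox2 and Nanog bind together at shared targets and maintain this state, and the naive factors Klf4, Esrrb and Zfp42 (REX1) mark its earliest form. Primordial germ cells keep or regain part of this network after the rest of the embryo has lost it, and several of the genes also have roles in differentiated cells, among them Sox2 in foregut and neural tissue and Klf4 in epithelia.

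The study followed 2 origins of gut endoderm in mouse embryos made by aggregating mCherry+ morulae (labelled CD1/G4, and per the study's methods sired by a colony kept on C57BL/6J) with GFP+ embryonic stem cells (labelled G4, the F1G4 line in the methods), so that embryonic cells carried GFP and extraembryonic endoderm carried mCherry. At E6.5 the groups were Epi (epiblast), exEndo 1 (distal extraembryonic endoderm) and exEndo 2 (proximal extraembryonic endoderm), each isolated by hand from single embryos. At E9.5 they were emMidgut and emHindgut (EPCAM+ cells of the gate labelled GFP, mCherry dual low), exMidgut and exHindgut (EPCAM+, mCherry+) and YsEndo (yolk sac endoderm, mCherry+), sorted from pools of 4 embryos. At E13.5 they were emColon and emSI (EPCAM+, GFP+, wild type) and exColon and exSI (EPCAM+, mCherry+, Trp53 KO), sorted from single embryos, where SI is the small intestine. Every group before E13.5 was wild type, with 4 libraries each, and the E13.5 groups had 3 each. All embryonic cells derived from 1 stem cell line, all stages include a delay of a day from embryo transfer, and at E13.5 origin and p53 genotype cannot be told apart. Embryonic midgut and hindgut together are called emGut, and their extraembryonic counterparts exGut.

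Depth allowed 10382 to 13596 genes above 1 TPM per library, and 1 TPM stood for a mean read coverage of 1.02 to 3.74, so that levels below 1 TPM rest on few reads. The labels fitted the reporters: EGFP was 180 to 880 TPM in the 18 embryonic libraries and at most 15.9 in the 26 extraembryonic ones, and mCherry was 1731 to 8667 TPM in the latter and at most 6.61 in the former. The collection text given for Epi names a tissue other than the epiblast, and the 10 visceral endoderm markers summed to 4.18 to 16.1 TPM in Epi against 8723 to 14862 TPM in exEndo 1, so these libraries held little endoderm. Some libraries stood apart from their group and are named beside the results: exEndo 1 replicates 2 and 4 (EGFP 13.7 and 15.9 TPM, against 1.09 and 0.0664 in replicates 1 and 3), exEndo 2 replicates 2 and 4 (the extraembryonic ectoderm factor Elf5 at 7.02 and 6.51 TPM, against 0.155 and 0.659), and emMidgut replicates 1 and 3 (the germ cell gene Dppa3 at 224 and 183 TPM, against 0 in replicates 2 and 4).

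Because Pou5f1 and Sox2 act on DNA side by side, the promoters of members were searched for the letters they recognise, CATTGT or CTTTGT for Sox factors and ATGCAAA for POU factors, on both strands. The RefSeq table (GRCm38.p6) holds promoters for 9 of the 10 members, each from 250 bases before to 50 after an annotated start. Nanog, Esrrb and Pou5f1 have more than 1 such start. The POU letters were in those of Nanog, Sox2 and Zfp42 and in 4.63% of all 32851 promoters. CATTGT was in those of Esrrb, Lin28a, Nanog and Pou5f1 (12.6% of all) and CTTTGT in that of Sox2 (18.7%). For Pou5f1 the match was only at a start inside the gene (chr17:35508557-35508856), and the promoter at its first start had none. For Esrrb the match lies 32 to 37 bases after the start. A Sox match followed after 1 base by a POU match was in 3 promoters of all, which belong to Nanog and Astn1 (0.00913%). The 3 members with a POU match are shown because they took different courses below, Nanog and Sox2 highest in Epi and Zfp42 lowest among the E6.5 groups there. The 250 bases before each start are given along the strand of the gene, with matches in capitals in either orientation. In Nanog, chr6:122707239-122707488 (+), the joined match lies 75 to 62 bases before the start. In Sox2, chr3:34649745-34649994 (+), the Sox match lies 206 to 201 and the POU match 99 to 93 bases before it. In Zfp42, chr8:43307010-43307259 (-), the POU match lies 185 to 179 bases before it. A match is a description of the sequence, and no binding was measured.
Nanog: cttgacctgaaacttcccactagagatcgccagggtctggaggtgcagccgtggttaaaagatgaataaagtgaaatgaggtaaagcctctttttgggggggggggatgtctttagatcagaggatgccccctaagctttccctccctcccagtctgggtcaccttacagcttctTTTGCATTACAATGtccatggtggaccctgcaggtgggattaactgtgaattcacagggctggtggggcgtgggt
Sox2: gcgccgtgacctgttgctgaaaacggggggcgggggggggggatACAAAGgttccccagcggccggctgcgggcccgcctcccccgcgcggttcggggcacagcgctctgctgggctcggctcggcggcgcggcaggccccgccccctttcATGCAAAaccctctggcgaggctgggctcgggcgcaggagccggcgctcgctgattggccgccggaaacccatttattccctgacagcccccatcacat
Zfp42: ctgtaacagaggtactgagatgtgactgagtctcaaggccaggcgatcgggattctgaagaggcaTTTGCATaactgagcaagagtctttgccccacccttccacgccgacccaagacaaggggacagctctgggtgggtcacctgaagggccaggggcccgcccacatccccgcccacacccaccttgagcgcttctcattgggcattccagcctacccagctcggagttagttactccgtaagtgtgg

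**Figure D1:**
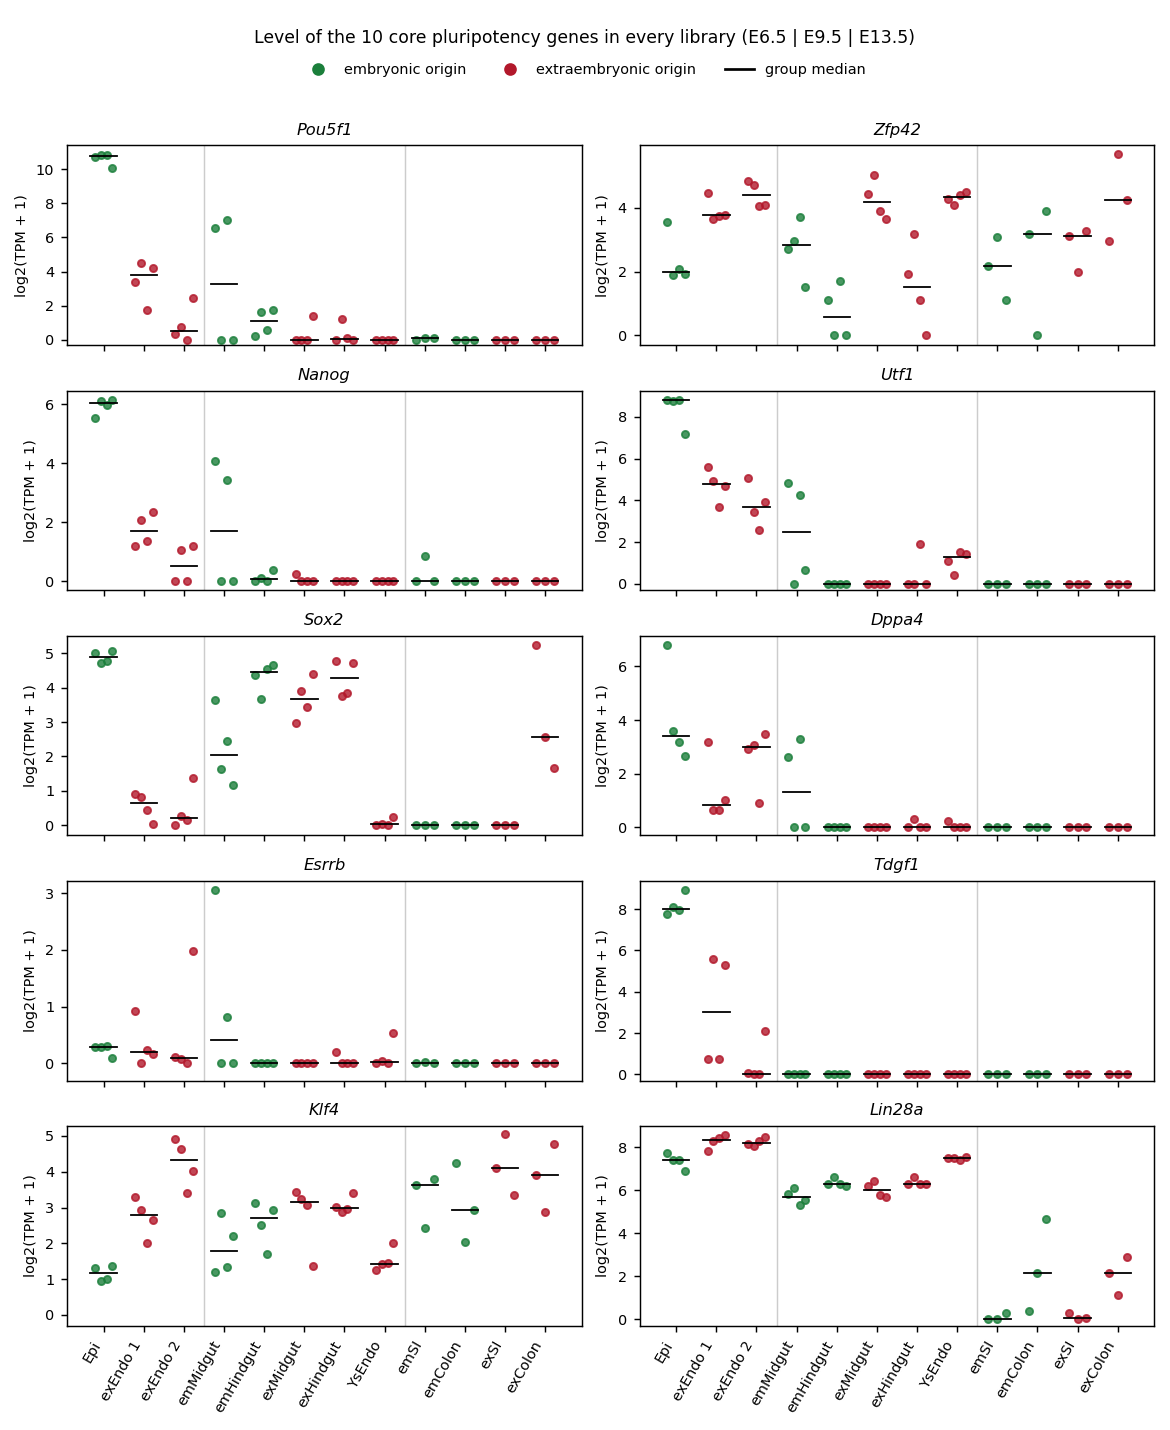
Level of each member as log2(TPM + 1) in every library, by group, with E6.5, E9.5 and E13.5 separated by grey lines. Points are single libraries (green, embryonic origin, and red, extraembryonic origin) and the black bar is the group median. Pou5f1, Nanog, Utf1 and Tdgf1 were highest in Epi, whereas Klf4 and Zfp42 were spread over most groups and Lin28a was at least 39.4 TPM in every E6.5 and E9.5 library.

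Pou5f1 (ENSMUSG00000024406, mm10 chr17:35506018-35510772, +) encodes the POU factor without which the pluripotent state is not kept. Its level in Epi was 1694, 1824, 1852 and 1067 TPM in replicates 1 to 4. In exEndo 1 it was 9.29, 21.7, 2.28 and 17.4 TPM, and in exEndo 2 0.264, 0.665, 0 and 4.51 TPM. Epi stood apart from every other library, and within exEndo 1 both libraries with EGFP had the highest values. At E9.5 the 4 emMidgut libraries split into a pair with 93.6 and 131 TPM (replicates 1 and 3) and a pair listed at 0. No other E9.5 library exceeded the 2.40 TPM of emHindgut replicate 4, all 4 YsEndo libraries were at 0, and the E13.5 maximum was 0.0746 TPM. Below Epi, neighbouring groups in the order of medians overlapped throughout. Of the 75-base windows of its transcripts, 7.36% are shared with Gm19553, an overlapping gene on the other strand that reached 2.91 TPM, and since the study's methods give no strand option for the quantification, unspliced reads of the pair cannot be told apart.

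Nanog (ENSMUSG00000012396, chr6:122707489-122714633, +), the homeobox factor named for its part in self-renewal, followed the same order of groups at its upper end. It was 45.5, 68.2, 62.2 and 70.4 TPM in Epi. It was 1.31, 3.17, 1.59 and 4.09 TPM in exEndo 1 and 0, 1.08, 0 and 1.28 TPM in exEndo 2, without overlap between these groups. In emMidgut it was 15.8 and 9.75 TPM in replicates 1 and 3 and 0 in replicates 2 and 4, the same split of libraries as for Pou5f1. Elsewhere it was below 1 TPM, with 0.801 TPM in emSI replicate 2 as the highest value.

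Sox2 (ENSMUSG00000074637, chr3:34650405-34652461, +), the HMG-box partner of Pou5f1, was the core factor with a second high level after E6.5. In Epi it was 31.4, 25.3, 26.6 and 32.3 TPM, and no exEndo 1 library exceeded 0.874 TPM or exEndo 2 library 1.57 TPM. In emHindgut it was 19.6, 11.7, 22.4 and 24.5 TPM, and in exHindgut 26.7, 12.6, 13.3 and 25.6 TPM. These hindgut groups overlapped each other, and exHindgut also overlapped Epi. In exMidgut it was 6.88, 13.9, 9.92 and 20.02 TPM, and in emMidgut 11.4, 2.11, 4.50 and 1.25 TPM. YsEndo stayed at or below 0.181 TPM. At E13.5 all 9 libraries of emSI, emColon and exSI were listed at 0, and exColon alone had values, 37.1, 4.93 and 2.13 TPM. Sox2 lies within Sox2ot on the same strand, which reached at most 5.97 TPM in any library and was at 0 in exColon.

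Utf1 and Dppa4 encode chromatin-associated proteins of pluripotent cells. Utf1 (ENSMUSG00000047751, chr7:139943789-139945112, +) was 449.8, 434 and 452 TPM in Epi replicates 1 to 3 and 145 TPM in replicate 4. In exEndo 1 it was 48.3, 29.2, 11.8 and 25.0 TPM, and in exEndo 2 32.6, 9.83, 4.97 and 14.0 TPM, so that both endoderm groups kept a level while lying below Epi. In emMidgut it was 27.4, 0, 18.0 and 0.606 TPM, again highest in replicates 1 and 3. It was 0.345 to 1.86 TPM in YsEndo, 2.71 TPM in 1 exHindgut library and 0 in every other gut and intestine library. Dppa4 (ENSMUSG00000058550, chr16:48283733-48294237, +) was 110 TPM in Epi replicate 1 and 11.1, 8.07 and 5.30 TPM in the others, and the same replicate had 19.2 TPM of Dppa3 against 2.56 to 4.81 TPM in the rest of Epi. In exEndo 1 it was 8.05, 0.574, 0.557 and 1.00 TPM, in exEndo 2 6.57, 7.48, 0.861 and 10.3 TPM, and in emMidgut 5.18, 0, 8.77 and 0 TPM. It was at or below 0.225 TPM in all other libraries. For Dppa4, 20.1% of windows are shared with the copies Gm14058 and Gm5501, so its level is uncertain to that extent.

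Tdgf1 (ENSMUSG00000032494, chr9:110939603-110946158, -), the cell-surface co-receptor through which Nodal signals, was confined in these libraries to E6.5. It was 212, 270, 249.8 and 480 TPM in Epi. In exEndo 1 it was 0.695, 47.2, 0.698 and 37.5 TPM, with the high values in the libraries that also held EGFP, and in exEndo 2 3.27 TPM in replicate 4 and at most 0.0331 TPM in the others. Every library of E9.5 and E13.5 listed it at 0. Its pseudogene Tdgf1-ps1 shares 5.99% of its windows.

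The naive factors had other patterns. Klf4 (ENSMUSG00000003032, chr4:55527143-55532466, -), a zinc-finger factor also known from epithelia, was lowest by median in Epi, at 1.5, 0.925, 1.0 and 1.58 TPM. It was 8.90, 6.66, 3.01 and 5.34 TPM in exEndo 1 and 29.2, 23.9, 9.69 and 15.2 TPM in exEndo 2, without overlap among these 3 groups. It was 1.30 to 9.91 TPM across the E9.5 gut, 1.38 to 3.0 TPM in YsEndo and 3.07 to 32.4 TPM at E13.5. Zfp42 (ENSMUSG00000051176, chr8:43295063-43306980, -), the zinc-finger gene widely used as a naive marker, was 10.9, 2.76, 3.21 and 2.80 TPM in Epi, 21.2, 11.4, 12.5 and 12.7 TPM in exEndo 1 and 27.7, 25.2, 15.8 and 16.1 TPM in exEndo 2. At E9.5 it was 16 to 21.7 TPM in YsEndo, 11.5 to 31.8 TPM in exMidgut, 1.85 to 12.2 TPM in emMidgut, 0 to 8.14 TPM in exHindgut and 0 to 2.25 TPM in emHindgut. Thus the hindgut groups were lowest and the order of the other groups showed wide overlaps. Its E13.5 values reached 50.3 TPM in 1 exColon library and were 0 to 18.0 TPM elsewhere. Esrrb (ENSMUSG00000021255, chr12:86361117-86521628, +), an orphan nuclear receptor, exceeded 1 TPM in emMidgut replicate 1 (7.34 TPM) and exEndo 2 replicate 4 (2.94 TPM), and passed the filter of no comparison.

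Lin28a (ENSMUSG00000050966, chr4:134003330-134018841, -), an RNA-binding protein that blocks maturation of let-7 microRNAs, was abundant at both E6.5 and E9.5 and in both origins. It was 216, 172, 172 and 117 TPM in Epi, 229, 313, 344 and 375 TPM in exEndo 1 and 282, 267, 311 and 356 TPM in exEndo 2. At E9.5 YsEndo held 172 to 188 TPM, emHindgut 72.6 to 99.0, exHindgut 77.1 to 98.5, exMidgut 51.4 to 87.0 and emMidgut 39.4 to 67.4 TPM. At E13.5 it was at most 0.235 TPM in the small intestine of either origin, 3.50, 1.18 and 6.38 TPM in exColon and 0.295, 3.52 and 24.4 TPM in emColon. The order by medians ran from extraembryonic endoderm over YsEndo and Epi to the gut and then the intestine, with overlap between exEndo 1 and exEndo 2, between YsEndo and Epi, between both hindgut groups, and between exMidgut and each other gut group. The 4 emMidgut libraries lay below all 8 hindgut libraries. Windows shared with Gm13061, which overlaps it on the other strand and reached 4.28 TPM, are 4.11%.

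To ask how extraembryonic endoderm differed from epiblast at E6.5, exEndo 1 and exEndo 2 were each compared with Epi. The core factors Pou5f1, Nanog and Sox2, together with Utf1 and Tdgf1, were lower in both endoderm groups, while Klf4 and Zfp42 were higher in both. Differences are in log2(TPM + 1) with their standard error, from limma with Benjamini-Hochberg adjustment over all genes tested, and calls required both an adjusted p under 0.05 and a difference above 1 in size. The log2(TPM + 1) scale understates changes of genes near or below 1 TPM. In exEndo 1, 8 of the 9 members tested were called, 6 lower and 2 higher, against 13.6% of all genes called lower and 19.8% called higher. Sox2, at most 0.874 TPM in exEndo 1, passed the filter there through Epi alone, so its test could only come out lower. In exEndo 2, 7 of 9 were called, 5 lower and 2 higher, against 15.4% and 20.4%.

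Pou5f1 was lower by the greatest amount of any member, with a difference of -7.17 ± 0.49 in exEndo 1 (adjusted p = 3.12e-07) and -9.74 ± 0.43 in exEndo 2 (adjusted p = 3.52e-09). Sox2 differed by -4.34 ± 0.21 and -4.45 ± 0.27 (adjusted p = 2.41e-08 and 5.07e-08), and Nanog by -4.20 ± 0.26 and -5.39 ± 0.29. Utf1 differed by -3.67 ± 0.43 and -4.65 ± 0.49, and Tdgf1 by -5.08 ± 1.02 and -7.64 ± 0.43 (adjusted p = 0.0011 and 2.83e-08). The naive factors went the other way. Klf4 differed by 1.57 ± 0.26 and 3.09 ± 0.29 (adjusted p = 0.000276 and 2e-06), and Zfp42 by 1.54 ± 0.36 and 2.06 ± 0.35 (adjusted p = 0.00281 and 0.000277). Dppa4 was called in exEndo 1 (-2.69 ± 0.83, adjusted p = 0.0148) although its ranges overlapped, and in exEndo 2 it had -1.46 ± 0.80 (adjusted p = 0.13). Lin28a differed by 0.90 ± 0.20 and 0.87 ± 0.17 with adjusted p of 0.00199 and 0.000853, under the fold threshold. It passed that threshold in exEndo 1 without Epi replicate 1 (1.03) or exEndo 1 replicate 1 (1.05). Sox2 fell below the filter in exEndo 1 without any single Epi library. In bulk tissue, fewer expressing cells and less RNA per cell cannot be told apart, and both comparisons share the Epi libraries. Without exEndo 1 replicates 2 and 4, which held EGFP, Dppa4 lost its call (adjusted p = 0.121), and in a single fit of all 44 libraries Zfp42 in exEndo 1 did (adjusted p = 0.0526).

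**Figure D2:**
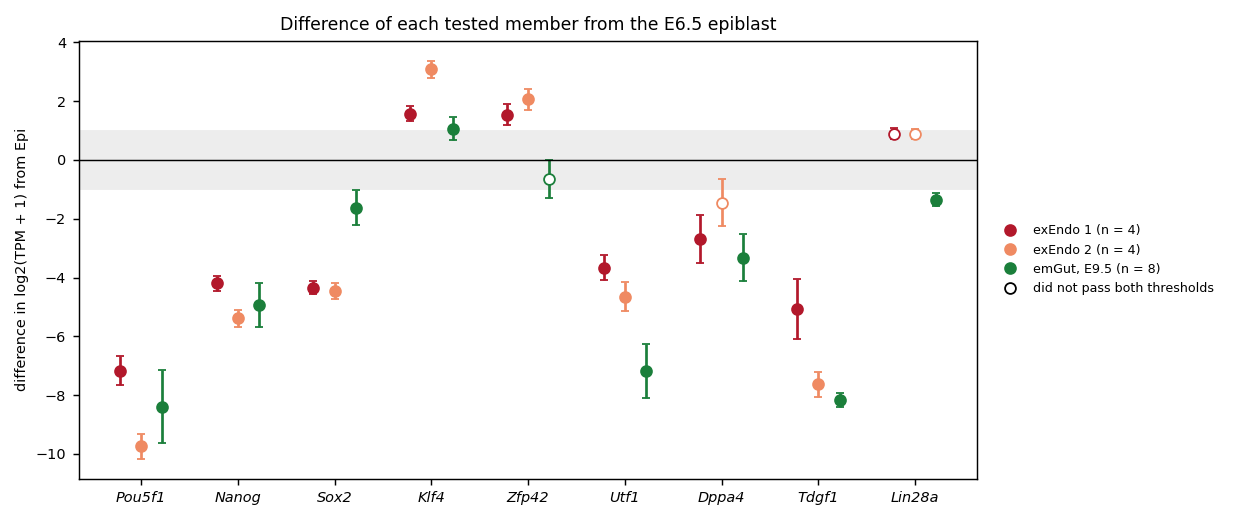
Difference in log2(TPM + 1) of each tested member from Epi (n = 4), for exEndo 1 (n = 4), exEndo 2 (n = 4) and emGut at E9.5 (n = 8). Points are limma estimates with standard errors as bars, filled where called, and the grey band marks differences of at most 1 in size. Pou5f1, Nanog, Utf1 and Tdgf1 lay far below 0 in all 3 comparisons, and Klf4 lay above 0 in all 3.

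Other genes of these pathways were compared in the same way. Of 9 formative and primed epiblast genes, 7 were lower in exEndo 1 (median of the list -2.59, of all genes 0.09), led by Pou3f1 (-4.54), Lin28b (-3.68) and Foxd3 (-3.45). All 9 were lower in exEndo 2 (median -3.72, of all genes 0.05), where Otx2 differed by -8.27 and Fgf5 by -6.32. Among 16 other naive pluripotency genes, 13 were tested in each comparison, and 4 were higher and 5 lower in exEndo 1. The higher ones included Tbx3 (4.92), Tfcp2l1 (4.48) and Tdh (2.81), and the lower ones Fgf4 (-2.41), L1td1 (-2.17) and Zscan10 (-1.92). In exEndo 2, 5 were higher, with Tbx3 at 5.65 and Klf5 at 4.51, and 4 were lower. In the Nodal pathway, 13 genes beside Tdgf1, 3 were lower in exEndo 1 (Gdf1 -4.58, Lefty2 -3.84, Acvr2b -1.58) and 1 higher, the co-receptor gene Cfc1 (4.23). In exEndo 2, 7 were lower and Cfc1 was higher (3.01). Of 9 Lin28 and let-7 pathway genes, Igf2bp2 was higher and Lin28b and Hmga2 lower in both. Pou3f1, Foxd3, Fgf4 and Gdf1 were at most 1 TPM in every exEndo 1 library. Otx2, Foxd3, Nodal, Fgf4, Gdf1, Gdf3, Lefty1 and Lefty2 were so in every exEndo 2 library. In those comparisons these genes passed the filter through Epi alone and could only come out lower. Tfcp2l1, at most 1 TPM in every Epi library, could only come out higher.

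The distal exEndo 1 and proximal exEndo 2 were then set against each other. Pou5f1 was higher in the distal group (2.56 ± 0.63, adjusted p = 0.0198) and Klf4 higher in the proximal group (-1.52 ± 0.34, adjusted p = 0.0134). These were 2 of 7 members tested, against 3.96% of all genes called higher and 2.45% called lower in exEndo 1. Nanog had 1.19 ± 0.36 (adjusted p = 0.0511) and, in the fit paired by replicate number, adjusted p = 0.00458, so that 3 members were called in the paired fit. Lin28a differed by 0.04 ± 0.15, and Zfp42, Utf1 and Dppa4 were not called (adjusted p = 0.173, 0.219 and 0.231). Tdgf1, below the filter, was 2.56 higher in exEndo 1 with an exact permutation p of 0.171. Of the formative and primed epiblast genes, 3 of 7 tested were higher in exEndo 1, Fgf5 (5.84), Otx2 (5.73) and Nodal (4.59), and none was lower. Otx2 and Nodal were at most 1 TPM in every exEndo 2 library. They passed the filter through exEndo 1 alone and could only come out higher. Otx2 was 179, 114, 4.18 and 91.9 TPM in exEndo 1, with replicate 3, the library with the least EGFP, Pou5f1 and Otx2, apart from the others. Without both EGFP libraries of exEndo 1, neither Pou5f1 (then below the filter) nor Klf4 (adjusted p = 0.0921) was called, and without both Elf5 libraries of exEndo 2 Klf4 was not (adjusted p = 0.105) and Nanog was (1.75, adjusted p = 0.0245). Pou5f1 also lost its call without exEndo 1 replicate 2 (adjusted p = 0.0656) or 4 (0.0606) or exEndo 2 replicate 1 (0.051) or 3 (0.065), and Nanog gained one without exEndo 1 replicate 1 (0.0414) or exEndo 2 replicate 2 (0.0481) or 4 (0.0427). Dppa4 was called without exEndo 1 replicate 1 (-1.83, adjusted p = 0.0422). The part of EGFP+ cells in these values was not tested further.

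**Figure D3:**
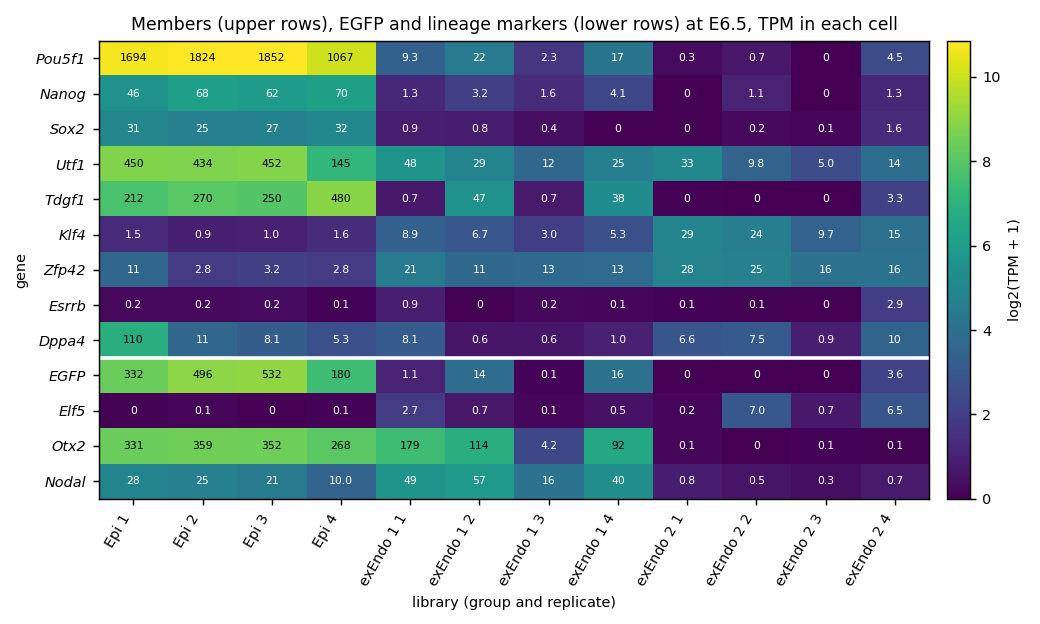
Level of the members (upper rows) and of EGFP, Elf5, Otx2 and Nodal (lower rows) in each E6.5 library, with colour giving log2(TPM + 1) and the number in each cell the TPM. In exEndo 1, Tdgf1 was 47.2 and 37.5 TPM in the libraries with EGFP and at most 0.698 TPM in the other libraries of that group, whereas Zfp42 and Klf4 did not follow EGFP.

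From E6.5 to E9.5 the embryonic lineage lost most of the network. In emGut, 7 of 9 members tested were lower than in Epi and Klf4 was higher, against 7.31% of all genes called lower and 22.4% called higher. The differences were -8.40 ± 1.24 for Pou5f1, -8.17 ± 0.23 for Tdgf1, -7.18 ± 0.92 for Utf1 and -4.95 ± 0.75 for Nanog (adjusted p = 6.92e-05, 3.51e-12, 1.84e-05 and 8.8e-05). Dppa4 had -3.32 ± 0.81, Sox2 -1.62 ± 0.59 and Lin28a -1.35 ± 0.23 (adjusted p = 0.00347, 0.0345 and 0.000198). Klf4 differed by 1.07 ± 0.38 (adjusted p = 0.0287), and Zfp42 had -0.66 ± 0.65 (adjusted p = 0.415). Tdgf1 was at 0 in all emGut libraries and passed the filter through the Epi libraries alone, so its test could only come out lower. The standard errors of Pou5f1, Nanog, Utf1 and Dppa4 reflect the split of emMidgut described above. The calls of Sox2 and Klf4 were the least firm. Sox2 lost its call with the replicate block (adjusted p = 0.0584), without the 2 Dppa3 libraries (0.0638) without any single Epi library and without emMidgut replicate 2 (0.0512) or 3 (0.0535). Klf4 lost its call after median-ratio rescaling (0.85, adjusted p = 0.0665), with FPKM (0.82) and without Epi replicate 1, 2 or 3, emMidgut replicate 2 or emHindgut replicate 1 or 4, where it was between 0.95 and 1.13. The median of all genes was 0.30, and genes higher in emGut made up 75.4% of calls, against 57.0% after that rescaling, which moved the median by -0.30. Among the other lists, all 9 formative genes were lower (among them Otx2 -8.35, Fgf5 -6.86 and Dnmt3b -5.69), and the Nodal genes Foxh1 (-5.50), Lefty2 (-5.07) and Nodal (-3.89) were lower. Otx2, Fgf5 and Lefty2 were at most 1 TPM in every emGut library and, like Tdgf1, passed the filter through Epi alone.

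In the extraembryonic gut lineage the change from exEndo 1 to exGut had a different make-up. Sox2 was higher in exGut by 3.42 ± 0.35 (adjusted p = 2.33e-06), while Utf1 (-4.49 ± 0.43), Pou5f1 (-3.10 ± 0.49), Lin28a (-2.06 ± 0.18) and Nanog (-1.72 ± 0.28) were lower (adjusted p = 1.04e-06, 0.000126, 4.56e-07 and 0.000165). These were 5 of 7 tested, against 18.8% of all genes called higher and 11.5% called lower. Sox2 was at most 0.874 TPM in every exEndo 1 library, so it passed the filter through exGut alone and could only come out higher. Nanog was at most 0.181 TPM in every exGut library, so it passed through exEndo 1 alone and could only come out lower. Klf4 and Zfp42 were not called (0.19 ± 0.38 and -1.0 ± 0.77). Tdgf1 and Dppa4, below the filter, had -3.10 and -1.33, each with an exact permutation p of 0.00202, or 0.0717 after adjustment over all members tested this way. Nanog fell below the filter without any single exEndo 1 library, and without both EGFP libraries of that group Nanog and Utf1 did, which left 3 members called. Dppa5a (-6.48), a naive gene, and Fgf5 (-6.03), Otx2 (-5.77) and Nodal (-5.19) were among the lower genes of the other lists, and the let-7 target Hmga2 was higher (3.22). Otx2 and Nodal were at most 1 TPM in every exGut library and could only come out lower.

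The yolk sac lineage took neither course for Sox2. In YsEndo against exEndo 2, Klf4 (-2.72 ± 0.30, adjusted p = 7.1e-06) and Utf1 (-2.62 ± 0.43, adjusted p = 0.000148) were lower, 2 of 4 members tested, against 7.95% of all genes called higher and 21.6% called lower. Zfp42 differed by -0.11 ± 0.20 and Lin28a by -0.74 ± 0.10 (adjusted p = 0.632 and 4.93e-05), the latter under the fold threshold. Sox2 missed the filter and was at or below 0.181 TPM in all YsEndo libraries. Dppa4, also below the filter, had -2.54 (exact permutation p = 0.0286, or 0.609 adjusted), and no smaller p is possible with 4 libraries on each side. The median of all genes was -0.41. Genes higher in YsEndo made up 26.9% of calls and 52.6% after median-ratio rescaling, which moved the median by 0.37. Naive genes beside the members were mostly lower, 7 of 11 tested, led by Dppa5a (-6.09), Tbx3 (-2.93) and Klf5 (-2.88), and Nr5a2 was higher (1.47). Nr5a2 was at most 1 TPM in every exEndo 2 library, passed the filter through YsEndo alone and could only come out higher.

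The question at E9.5 was whether gut cells of extraembryonic origin differed from their embryonic neighbours. None of the 5 members tested in exGut against emGut was called by limma, and 0 of 5 had an unadjusted p under 0.05, against 2.35% of all genes called. The differences were 0.71 ± 0.48 for Sox2, 1.19 ± 0.70 for Zfp42, 0.69 ± 0.35 for Klf4, 0.19 ± 0.18 for Lin28a and -1.87 ± 0.93 for Pou5f1. With gut region as a covariate and a replicate block, an alternative chosen after seeing the data, Zfp42 was called (adjusted p = 0.04). Within the midgut, 0 of 4 were called and 2 had an unadjusted p under 0.05 (2.58% of all genes called), with Zfp42 at 1.53 ± 0.46 (adjusted p = 0.0925) and Sox2 at 1.45 ± 0.52 (adjusted p = 0.157). Within the hindgut, 0 of 4 were called and 0 had an unadjusted p under 0.05 (3.07% of all genes called), with Sox2 at -0.03 ± 0.31 and Lin28a at 0.03 ± 0.14. The origin difference did not depend detectably on region for any of 5 members (0.0965% of all genes called, and 1 member with an unadjusted p under 0.05). These misses do not show equal levels. Lin28b, the paralogue of Lin28a, was lower in extraembryonic cells of both regions (midgut -1.74 and hindgut -1.23, adjusted p = 0.0371 and 0.0213), but was not called with the regions together (-1.48 ± 0.44, adjusted p = 0.0713).

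Gut region separated Sox2 and Zfp42. In the embryonic gut Sox2 was higher in the hindgut (2.09 ± 0.46, adjusted p = 0.00384) and Zfp42 lower (-2.02 ± 0.53, adjusted p = 0.0118), 2 of 5 tested, against 5.24% of all genes called higher and 8.61% called lower. In the extraembryonic gut Zfp42 was lower in the hindgut (-2.70 ± 0.58, adjusted p = 0.00567), 1 of 4 tested, against 4.50% and 6.78%, and Sox2 had 0.60 ± 0.37 (adjusted p = 0.303). Without both Dppa3 libraries of emMidgut, Zfp42 had -1.53 in the embryonic gut and was not called (adjusted p = 0.126). Other naive genes differed by region too, in both origins: Tdh (-4.04 and -4.46), Nr5a2 (-3.35 and -3.96) and Tfcp2l1 (-2.49 and -2.77) were lower in the hindgut, and Tbx3 (2.46 and 1.31) was higher. Tfcp2l1 was at most 1 TPM in every emHindgut library, so in the embryonic gut its test could only come out lower. The region comparisons do not share libraries.

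Within emMidgut some members divided the 4 libraries in the same way as some germ cell genes. Replicates 1 and 3 held Pou5f1, Nanog, Utf1 and Dppa4, and these libraries also held Dppa3 (224 and 183 TPM), Dnd1 (28.5 and 17.2 TPM), Tfap2c (13.8 and 10.5 TPM) and Dppa5a (103 and 324 TPM). In replicates 2 and 4 Dppa3, Tfap2c and Dppa5a were at 0, and Dnd1 was 0 and 3.02 TPM. Other germ cell markers did not divide them. Prdm1 was 66.0 to 101 TPM and Kit 25.8 to 50.4 TPM in all 4 emMidgut libraries, and Prdm1 was also 54.5 to 101 TPM in exMidgut, where Dppa3 was at most 0.462 TPM. The 9 germ cell markers together summed to 104 to 394 TPM in emMidgut, 41.0 to 61.2 in emHindgut, 71.8 to 130 in exMidgut, 57.3 to 76.4 in exHindgut and 12.6 to 15.3 in YsEndo. All 9 exceeded 1 TPM in at least 1 emMidgut library, and Dppa3 did so in no library of the other 4 groups. EGFP was 701 to 880 TPM in all 4 emMidgut libraries. Per the study's methods this gate was preferred to GFP-only EPCAM+ cells because the latter include germ cells and surface ectoderm, and the part of germ cells in the embryonic values was not tested. In replicates 1 and 3 Sox2 was 11.4 and 4.50 TPM, against 2.11 and 1.25 TPM in replicates 2 and 4. Klf4 went the other way, at 1.30, 6.17, 1.55 and 3.61 TPM in replicates 1 to 4. Zfp42 (5.59, 6.74, 12.2 and 1.85 TPM) and Lin28a (55.2, 67.4, 39.4 and 45.6 TPM) did not divide the libraries this way. Tdgf1 was at 0 in all 4.

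**Figure D4:**
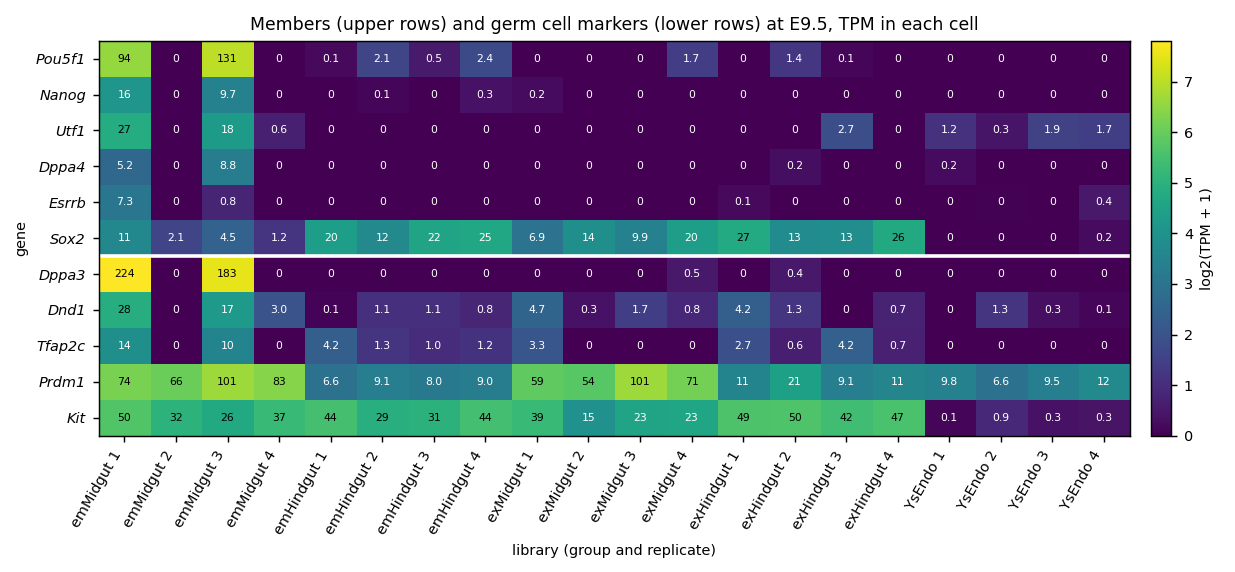
Level of 6 members (upper rows) and 5 germ cell markers (lower rows) in the 20 libraries of E9.5, with colour giving log2(TPM + 1) and the number in each cell the TPM. Pou5f1, Nanog, Utf1, Dppa4, Dppa3 and Tfap2c were high together in emMidgut replicates 1 and 3, whereas Prdm1 and Kit were present in all 4 libraries of that group.

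Both E9.5 descendants of extraembryonic endoderm were compared with each other. In exGut against YsEndo, Sox2 (3.91 ± 0.33, adjusted p = 1.79e-07) and Klf4 (1.39 ± 0.36, adjusted p = 0.00371) were higher and Lin28a lower (-1.29 ± 0.16, adjusted p = 7.58e-06), 3 of 5 tested, against 32.3% of all genes called higher and 10.0% called lower. The Sox2 groups did not overlap. Sox2 was at most 0.181 TPM in every YsEndo library, so it passed the filter through exGut alone and could only come out higher. Utf1 had -0.89 ± 0.39 and Zfp42 -1.41 ± 0.76 (adjusted p = 0.0598 and 0.12). The median of all genes was 0.59, and the share of higher genes among calls was 76.3%, or 54.8% after median-ratio rescaling, which moved the median by -0.51. Under it Klf4 had 0.96 and lost its call, and Utf1 (-1.1) and Zfp42 (-1.91) gained theirs, as Utf1 did without YsEndo replicate 2 (-1.12, adjusted p = 0.0493) and Zfp42 without exMidgut replicate 2 (-1.72, adjusted p = 0.0493). Among Lin28 and let-7 pathway genes 4 of 9 were higher in exGut and none lower, with Hmga2 at 7.57, Lin28b at 1.93 and Tut4 at 1.66, so that Lin28a and Lin28b differed in opposite directions. Hmga2 was at most 0.896 TPM in YsEndo, passed the filter through exGut alone and could only come out higher.

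By E13.5 the members that remained were Klf4 and Zfp42, with Lin28a in the colon of both origins and Sox2 in exColon alone. Against emGut, the embryonic intestine was lower in Lin28a (-4.77 ± 0.60, adjusted p = 3.87e-05) and Sox2 (-3.27 ± 0.53, adjusted p = 0.000418), 2 of 5 tested, against 2.59% of all genes called higher and 15.2% called lower. Sox2 was listed at 0 in every emSI and emColon library, so it passed the filter through emGut alone and could only come out lower. Against exGut, the extraembryonic intestine was lower in Lin28a (-5.12 ± 0.42, adjusted p = 9.26e-07) and Sox2 (-2.40 ± 0.69, adjusted p = 0.0237), 2 of 4 tested, against 2.78% and 9.60%. Stage and p53 genotype cannot be told apart in the second comparison, and its call of Sox2 was lost with the replicate block (-2.21, adjusted p = 0.0805) and without any single exSI library. Klf4 had 0.94 ± 0.44 and 1.09 ± 0.41 in these comparisons and Zfp42 0.53 ± 0.68 and 0.64 ± 0.74, none of them called, except for Klf4 against exGut without exColon replicate 2 (1.31, adjusted p = 0.0333). The medians of all genes were -0.46 and -0.28. Higher genes made up 14.6% and 22.4% of calls, or 32.7% and 35.1% after median-ratio rescaling, which moved the medians by 0.26 and 0.15. In the embryonic comparison 4 of 9 Lin28 and let-7 pathway genes were lower, led by Lin28b (-2.69), Igf2bp1 (-1.32) and Dis3l2 (-1.27), and none higher. Against exGut 1 of 9 was lower, Dis3l2 (-1.12), none was higher, and Lin28b had -0.57 ± 0.71 (adjusted p = 0.611).

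At E13.5 itself no member was called between origins by limma (0 of 4 tested, 1 with an unadjusted p under 0.05, against 0.625% of all genes called) or between colon and small intestine (0 of 4, 2 with an unadjusted p under 0.05, against 1.30%). Sox2 had 1.58 ± 0.67 in each comparison, adjusted p of 0.374 and 0.359, since exColon alone carried it. In exColon replicate 1, which had 37.1 TPM of Sox2, the surface ectoderm keratins Krt15 and Krt5 were 147 and 16.2 TPM, Grhl3 and Trp63 9.15 and 9.03 TPM and the keratin Krt14 0.0251 TPM. The 5 surface ectoderm markers summed to 13.3 to 182 TPM in exColon and at most 57.2 TPM in the other E13.5 groups. That maximum was emColon replicate 2, where Grhl3 was 35.7 and Krt15 21.4 TPM and Sox2 was at 0. The 6 neural markers summed to 0 to 3.79 TPM in exColon, where Sox1, Pax6, Tubb3 and Sox10 were at 0 in all libraries, Nes was 2.47, 2.31 and 0 TPM and Sox3 was 1.48 TPM in replicate 2 and 0 in the others. In the other E13.5 groups they summed to 0.0912 to 16.6 TPM, and the part of other cells in the value of Sox2 was not tested. Lin28a had 2.12 ± 0.63 between organs (adjusted p = 0.133), and its values did not overlap, with 0.295 TPM the lowest in the colon and 0.235 TPM the highest in the small intestine. Both values lie below 1 TPM, where levels rest on few reads, so this narrow gap is not firm. In a single fit of all 44 libraries, which shares the spread of the larger groups, Sox2 was called in both comparisons (adjusted p = 0.00447 and 0.00442) and Lin28a between organs (1.47e-05), as it was without emColon replicate 1 (2.55, adjusted p = 0.0442). Sox2 passed the filter at E13.5 through the exColon libraries alone. The same exColon values gave both of its calls, so they are not separate results for origin and organ.

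The difference between lineages changed in size from E6.5 to E9.5 for 6 of 9 members tested, against 34.3% of all genes called for this term. The change of the extraembryonic minus embryonic difference was 5.30 ± 1.30 for Pou5f1, 5.08 ± 0.86 for Tdgf1, 5.05 ± 0.50 for Sox2, 3.23 ± 0.72 for Nanog and 2.68 ± 0.89 for Utf1, and -0.71 ± 0.24 for Lin28a (adjusted p = 0.00224, 3.73e-05, 1.09e-08, 0.000929, 0.0198 and 0.0216). For Sox2 the difference went from -4.34 at E6.5 to 0.71 at E9.5, and for Tdgf1 it was -5.08 at E6.5, with all libraries of both lineages listed at 0 at E9.5. The change of Tdgf1 is therefore its E6.5 difference with the sign turned. Klf4 (-0.88 ± 0.52), Zfp42 (-0.35 ± 0.68) and Dppa4 (1.99 ± 0.88) were not called (adjusted p = 0.2, 0.74 and 0.082). With a pseudocount of 0.1, Pou5f1, Nanog and Utf1 lost their calls (adjusted p = 0.116, 0.133 and 0.319). Utf1 also did without exEndo 1 replicate 3 (0.0584), and Lin28a without Epi replicate 4 (0.0709) or exEndo 1 replicate 3 (0.0511) or 4 (0.0627). Dppa4 gained a call without Epi replicate 4 (2.46), exEndo 1 replicate 1 (2.59) or emMidgut replicate 3 (2.29), and without both Dppa3 libraries (2.73). Higher genes made up 39.4% of the calls for this term and 50.4% after median-ratio rescaling, which moved the median by 0.14. The formative genes Pou3f1 (4.52), Foxd3 (3.30) and Sall2 (2.86) were among 7 of 9 that changed in the same direction as the core factors, with none called in the other. Pou3f1, Foxd3 and Otx2 were at most 1 TPM in every E9.5 gut library. Their change thus largely repeats the E6.5 difference (-4.54 for Pou3f1 and -3.45 for Foxd3) and adds no separate result.

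The genes whose group means of log2(TPM + 1) were most like each member over the 12 groups are given as a description. For Pou5f1 the nearest gene was Nanog (Pearson r = 0.995, 12 group means), followed by Atp2a1 (0.967) and Fam57b (0.966), and the latter genes were also nearest to Nanog after Pou5f1. For Tdgf1 the nearest was the Nodal antagonist Lefty2 (0.990). For Utf1 it was Sez6l2 (0.985), and for Dppa4 it was Gm14124 (0.969), with Utf1 at 0.953. Sox2 was nearest to the progesterone receptor gene Pgr (0.969), Klf4 to its paralogue Klf5 (0.891), Zfp42 to Acadm (0.912) and Apoe (0.901), Lin28a to Pid1 (0.975) and Esrrb to Vit (0.921). Genes that are high in 1 group of the 12 reach such values readily, since the group means share that group.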

How the data were processed

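RNA of 44 low-input libraries was quantified by the authors. Per their methods and processing notes, adapters were removed with cutadapt 4.1, mapping to mm10 plus both reporter sequences was done with STAR 2.7.9a, and StringTie 2.0.6 gave the level of each GENCODE VM23 gene. TPM as deposited was used for levels and tests, and FPKM as deposited for an alternative. The read coverage deposited beside them was used only as a measure of depth. Rows were summed per gene identifier, and gene type and position came from GENCODE vM21, another release. No read counts per gene were used, so the counting error of a value is unknown.

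Protein-coding and reporter genes not on the Y chromosome with TPM above 1 in at least 4 libraries of a comparison (3 where a group has 3) were tested as log2(TPM + 1) in R 4.3.3 with moderated linear models (lmFit and trended eBayes of limma 3.58.1). Tests were two-sided, with Benjamini-Hochberg adjustment over all genes of each comparison. Calls required an adjusted p under 0.05 together with a log2 difference above 1 in size. Interaction terms had no fold threshold. A gene at or below 1 TPM throughout 1 side of a comparison could pass the filter only through the other side, which largely fixes the direction of its difference. Members below the filter were compared by an exact permutation test over libraries, two-sided. The fit was also run on simulated normal values without a floor at 0. Both groups were given the mean and spread of the second group of a comparison. For exEndo 1 against Epi (12057 genes), 88% of genes changed by 1.5 and 98% of those changed by 2 on the log2 scale were recovered, with 6 false calls. For exMidgut against emMidgut (12432 genes), 60% and 78% were, with 8 false calls. The spread of the first group did not enter, so recovery is not known for members with many values of 0 or a wider first group.

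Groups came from the labels. Replicates are separate embryos at E6.5 and E13.5 and separate pools at E9.5. Same-numbered libraries of exEndo 1 and exEndo 2 deviated together from their group means (r = 0.186 to 0.401), so the paired fit is given beside that comparison. In no other pair of groups did every same-numbered pair exceed r = 0.1, the cut used. Same-numbered emSI and exSI libraries had r = 0.0556 to 0.0759, against -0.0568 to -0.015 for their other pairings. For emColon and exColon r was 0.0205 to 0.0378, against -0.0271 to 0.00849. These E13.5 libraries thus also deviated together, though weakly, and the main fit of origin at E13.5 did not use the pairing. The alternatives tried were FPKM, median-ratio rescaling, a pseudocount of 0.1, no filter, untrended eBayes, all 44 libraries in a single fit, the replicate block, gut region as a covariate, leaving out each library, and leaving out both emMidgut libraries that hold Dppa3. Leaving out both exEndo 1 libraries with EGFP above 10 TPM, leaving out both exEndo 2 libraries with Elf5 above 5 TPM, and the block with region were chosen after seeing the data.

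The members and the 11 lists of other genes were chosen with earlier results of these data known. A few genes of these lists are not reported here and are left out of the list counts. All members are named in every group. From each list, up to 3 called genes with the largest difference in each direction are named, with markers that stand beside a member, and up to 3 of the genes nearest to each member. Shared sequence was counted as 75-base windows of vM21 transcripts that occur in another gene. Promoter sequences are from RefSeq.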

Additional observations from a re-analysis of the deposited data

Results flagged for a closer look

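Single libraries lay apart from the rest of their group by Dixon's gap test in 14 of the 56 groups of 4 libraries tested. The test flags about 1 in 20 by chance where values are normally distributed. The 56 match the groups in which a member had a library above 1 TPM, so low groups entered only through a high library. Many low values also lay at the floor of the scale. The rate of 1 in 20 therefore cannot be relied on here, and whether 14 exceeds chance was not tested. Several of the 14 flagged values came from the same libraries. In exEndo 2 replicate 4, which also held EGFP (3.59 TPM) and Elf5 (6.51 TPM), Pou5f1 was 4.51 TPM, Sox2 1.57 TPM, Esrrb 2.94 TPM and Tdgf1 3.27 TPM, each the highest of its group. In Epi replicate 1, Dppa4 was 110 TPM and Zfp42 10.9 TPM, and in exEndo 1 replicate 1, Dppa4 was 8.05 TPM and Zfp42 21.2 TPM. Both of these libraries held about 19 TPM of the germ cell gene Dppa3 (19.2 and 19.4 TPM).

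The others stood singly. Utf1 was low in Epi replicate 4 (145 TPM), where Pou5f1 was also lowest and Tdgf1 highest of the group. Esrrb was 7.34 TPM in emMidgut replicate 1, a library with Dppa3. Pou5f1 was 1.66 TPM in exMidgut replicate 4 and 1.37 TPM in exHindgut replicate 2, and Utf1 was 2.71 TPM in exHindgut replicate 3. Lin28a was 98.5 TPM in exHindgut replicate 2, against 77.1 to 78.6 TPM in the other 3. Whether these values reflect cells of another type in a library was not tested.

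The origin difference differed between E6.5 and E9.5, by an interaction term of limma, for 6 members. The change was 5.30 for Pou5f1, 3.23 for Nanog, 5.05 for Sox2, 2.68 for Utf1, 5.08 for Tdgf1 and -0.71 for Lin28a. At E9.5 the embryonic values of Pou5f1, Nanog and Utf1 rest on emMidgut replicates 1 and 3. Tdgf1 was listed at 0 in every E9.5 gut library, so its change repeats its E6.5 difference with the sign turned.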

How the results depend on the processing

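No called difference of a member changed sign in any of 2015 alternative fits in which the member passed the filter. Differences that were not called did so in 19 fits, 16 of them where the difference as reported was under 0.25 in size. The origin difference in hindgut minus midgut of Pou5f1 went from 2.35 to -1.05 without both Dppa3 libraries. Of the 2015 fits, 1937 kept the call or its absence, 50 lost a call and 28 gained one. The number of members called (as reported, then changed) moved by over 1.5 times as follows. In exEndo 1 against exEndo 2 it went from 2 to 0 with no filter on low values, to 0 in a single fit of all 44 libraries and to 0 without both EGFP libraries. In exGut against exEndo 1 it went from 5 to 3 without the EGFP libraries (Nanog and Utf1). In exGut against emGut it went from 0 to 1 with region and replicate block. In emHindgut against emMidgut it went from 2 to 1 with no filter and to 1 without both Dppa3 libraries (Zfp42 each time). With all 44 libraries, E13.5 extraembryonic against embryonic went from 0 to 1 and E13.5 colon against small intestine from 0 to 2, with Sox2 counted in both from the same exColon values. E13.5 extraembryonic intestine against exGut went from 2 to 1 with no filter and to 1 with the replicate block. The change of the origin difference from E6.5 to E9.5 went from 6 to 3 with a pseudocount of 0.1.

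Leaving out single libraries gave 7 to 9 members called in exEndo 1 against Epi, 7 in exEndo 2 against Epi, 1 to 4 in exEndo 1 against exEndo 2, 5 to 8 in emGut against Epi, 4 to 5 in exGut against exEndo 1, 3 to 4 in exGut against YsEndo, 0 to 1 in E13.5 colon against small intestine, 1 to 3 in E13.5 extraembryonic intestine against exGut and 4 to 7 for the change from E6.5 to E9.5. In the remaining 9 results the number did not move. The 5 in emGut against Epi came without Epi replicate 1, 2 or 3, where Tdgf1 falls below the filter.

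Over all genes, the number called moved by over 1.5 times in exEndo 1 against exEndo 2 (732 to 458 with all 44 libraries and 371 without the EGFP libraries), exGut against emGut (316 to 591 with all 44, 587 with region and 575 with region and block), exMidgut against emMidgut (321 to 173 with no filter, 118 without the Dppa3 libraries and 209 without emMidgut replicate 4), exHindgut against emHindgut (378 to 223 with no filter and 237 without emHindgut replicate 1), E13.5 extraembryonic against embryonic (78 to 1207 with all 44), E13.5 colon against small intestine (162 to 81 with no filter and 1347 with all 44) and E13.5 extraembryonic intestine against exGut (1666 to 2784 with all 44 and 1037 with the block). For the change of origin difference with region it went from 13 to between 0 and 47. The causes were not tested. Beside exEndo 1 against exEndo 2, where the paired fit called 3 members, and the calls of Sox2 and Zfp42 given above, the replicate block changed no call of a member. Values near 1 TPM are limited by depth, and those of sorted libraries also by the low number of cells.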
